A study of Mus musculus with 69 samples.

Results

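The genes of DNA replication and S phase are described here in cultured vascular cells of male C57BL/6 mice. They are 38 genes, chosen by symbol from the 56953 genes of the count tables: the origin licensing genes Orc1, Cdc6, Cdt1 and Mcm2 to Mcm7, the helicase activators Mcm10, Cdc45 and Gins1 to Gins3, the polymerase genes Pola1, Prim1, Pold1 and Pole, the clamp and lagging strand genes Pcna, Rfc2 to Rfc5, Rpa2, Fen1 and Lig1, the nucleotide supply genes Rrm1, Rrm2, Tyms and Tk1, the chromatin copying genes Uhrf1, Dnmt1, Chaf1a and Chaf1b, and the genes of G1/S control E2f1, Ccne1 and Ccne2, grouped with the replication checkpoint gene Clspn. All 38 symbols matched 1 Ensembl identifier each, and all 38 passed the filter on low counts in every comparison. Poly(A) RNA was sequenced from 69 libraries. WT VSMC (16 libraries) were aortic smooth muscle cells of wild-type animals, KO VSMC (15 libraries) were the same cells of animals with floxed Egfr alleles and a Cre recombinase driven by the SM22 promoter, and EC (38 libraries) were heart endothelial cells selected as CD45- and CD31+. All EC libraries are labelled WT, although some EC came from animals that also gave KO VSMC. Each culture was split into Control, HG+FFA (20 mM glucose with free fatty acids, given as 100 µM in the labels and as 100 µM each of oleate and palmitate in the methods), AII+NA (30 nM angiotensin II with 300 nM of a catecholamine, named epinephrine in the labels and norepinephrine in the methods) and ALL (both together), and was exposed for 24 h. All VSMC cultures, controls included, had been kept without serum for 24 h before that and stayed without serum during the exposure, which the sources used here do not state for EC. Fatty acid free albumin was added to all incubations. The age of the animals was not stated in the sources used here. Libraries that came from 1 culture carry the same set number: sets 1 to 4 were WT VSMC, 5 to 8 KO VSMC and 9 to 18 EC, each from 1 animal, and sets 17 and 18 shared an animal. The ALL library of set 5, the Control library of set 10 and the AII+NA library of set 15 were not analysed here.

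A cell copies its genome once per division. In G1 the origin recognition complex, Cdc6 and Cdt1 load the ring of Mcm2 to Mcm7 onto DNA, and at the start of S phase Cdc45 and the GINS complex join the ring and turn it into the working helicase. Polymerases, the sliding clamp Pcna and its loader then copy both strands, ribonucleotide reductase and thymidine enzymes supply the nucleotides, and Uhrf1, Dnmt1 and the Chaf1 complex copy DNA methylation and nucleosomes onto the new strands. Transcription of many of these genes is low in resting cells and is switched on by E2F factors before S phase. Smooth muscle cells of a healthy vessel rarely divide, and their return to the cell cycle is a known feature of vessel wall damage.

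The promoters of the 5 genes that were called in any comparison are shown because these genes carry the tested differences. A promoter was taken as the 250 bases before and the first 50 bases from the start of the Ensembl canonical transcript, in the GRCm39 (mm39) genome. In the sequences, capitals mark 4 words of the E2F consensus (TTTCCCGC, TTTCGCGC, TTTGCCGC and TTTGGCGC), searched on both strands, so that a word on the opposite strand appears as its reverse complement. Mcm5 lies on the forward strand of chromosome 8 (75836140 to 75856231), and its promoter window is chr8:75835890-75836189. Mcm3 lies on the reverse strand of chromosome 1 (20870791 to 20890536), with the window chr1:20890487-20890786. Mcm2 lies on the reverse strand of chromosome 6 (88860452 to 88875762), with the window chr6:88875713-88876012. Cdt1 has the forward strand window chr8:123294498-123294797, and Rrm2 the forward strand window chr12:24757561-24757860.
Mcm5: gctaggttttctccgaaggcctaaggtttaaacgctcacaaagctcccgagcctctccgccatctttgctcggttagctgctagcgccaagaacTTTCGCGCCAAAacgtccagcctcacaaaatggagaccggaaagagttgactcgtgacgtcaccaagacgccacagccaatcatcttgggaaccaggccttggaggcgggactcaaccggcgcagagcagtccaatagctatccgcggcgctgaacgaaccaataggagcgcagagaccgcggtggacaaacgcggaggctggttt
Mcm3: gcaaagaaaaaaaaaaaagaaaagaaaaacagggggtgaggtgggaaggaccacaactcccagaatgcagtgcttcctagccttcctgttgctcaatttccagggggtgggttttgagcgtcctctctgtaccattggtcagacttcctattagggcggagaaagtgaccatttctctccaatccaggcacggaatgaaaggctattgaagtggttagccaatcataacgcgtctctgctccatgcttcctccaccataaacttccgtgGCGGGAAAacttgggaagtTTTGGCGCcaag
Mcm2: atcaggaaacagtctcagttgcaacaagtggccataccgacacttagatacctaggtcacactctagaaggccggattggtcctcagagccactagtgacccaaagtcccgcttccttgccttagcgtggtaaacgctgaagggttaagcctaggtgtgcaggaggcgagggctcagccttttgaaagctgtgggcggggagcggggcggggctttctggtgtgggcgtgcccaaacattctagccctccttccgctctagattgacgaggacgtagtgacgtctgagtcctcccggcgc
Cdt1: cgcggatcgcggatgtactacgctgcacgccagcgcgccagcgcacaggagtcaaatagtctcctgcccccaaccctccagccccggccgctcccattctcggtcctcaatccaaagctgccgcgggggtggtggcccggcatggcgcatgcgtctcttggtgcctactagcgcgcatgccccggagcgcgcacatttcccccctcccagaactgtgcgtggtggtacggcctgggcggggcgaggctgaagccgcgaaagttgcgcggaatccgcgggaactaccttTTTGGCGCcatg
Rrm2: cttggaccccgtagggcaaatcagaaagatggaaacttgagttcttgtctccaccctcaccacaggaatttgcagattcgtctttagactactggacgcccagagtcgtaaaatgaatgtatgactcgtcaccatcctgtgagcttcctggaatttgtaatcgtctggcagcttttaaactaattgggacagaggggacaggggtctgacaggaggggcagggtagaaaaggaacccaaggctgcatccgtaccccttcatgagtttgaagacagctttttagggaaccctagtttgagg
Mcm5 held a pair of words on opposite strands that overlap and begin at bases -156 and -152 from the start. Mcm3 held 2 words after the start, at bases 19 and 38, Cdt1 held 1 at base 38, and none of the 4 words occurred in the windows of Mcm2 and Rrm2. Among the 38 promoters 12 (31.6%) held at least 1 word, against 614 of 21738 promoters of protein-coding genes (2.82%). The words were found in 7 of the 9 licensing genes (77.8%), the exceptions being Mcm2 and Mcm7, and in none of the 4 nucleotide supply or the 4 chromatin copying genes. Of 50 other replication genes 15 (30.0%) held a word, and of 21 genes of G2 and mitosis 1 (4.76%). The word CCAAT, searched on both strands, occurred in 22 of the 38 promoters (57.9%) and in 39.9% of all promoters. A match is a run of letters and not evidence of binding.

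Library depth was 23626664 to 37801299 assigned reads in WT VSMC, 17166133 to 43240489 in EC and 23238979 to 35120866 in KO VSMC. Egfr checked the genotype: the set means were 246 to 430 FPM (reads of a gene scaled to a common library total, with TMM factors, as CPM) in WT VSMC and 0.959 to 1.84 FPM in sets 6 to 8, but 36.5 FPM in set 5, which is labelled KO. The medians of the members in KO VSMC under ALL, under AII+NA and in Control are therefore also given without set 5. The other results on KO VSMC include it. Smooth muscle markers (7 genes) summed to at least 371 FPM in every WT VSMC, 705 FPM in every KO VSMC and 203 FPM in every EC library, and to at most 3940 FPM. Endothelial markers (8 genes) summed to at most 69.9 FPM in VSMC, to 415 to 2820 FPM as set means in 7 EC sets, and to 50.9, 112 and 41.7 FPM in EC sets 9, 11 and 13, which thus went against their label. Fibroblast markers (5 genes) were high in all cultures, at 434 to 11300 FPM. All EC are labelled WT, but EC sets 15 and 16 came from the animals of KO VSMC sets 7 and 6 and had the lowest Egfr among the EC (9.31 and 2.61 FPM). All VSMC libraries belong to 1 batch of the labels and all EC libraries to another, so cell type and batch cannot be told apart. In such bulk samples fewer cycling cells and less RNA per cell cannot be told apart either.

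Without stressors the replication genes were low but measurable in all 3 cell types. Per kilobase of exon, E2f1 and Pcna led in WT VSMC Control libraries, both at 15.7 FPKM (FPM per kilobase of exon, SD 1.53 and 3.93, n = 4), an order that lies within their spread. Rrm1 (7.34 ± 3.06 FPKM), Mcm6 (6.84 ± 0.68) and Mcm7 (6.70 ± 1.28) followed, again closer to each other than their SD. At the lower end stood Clspn (0.107 ± 0.047 FPKM), the adaptor of the replication checkpoint, and Mcm10 (0.105 ± 0.088), with Fen1 (0.156 ± 0.040) and Orc1 (0.204 ± 0.035) next to them. Within the Mcm2 to Mcm7 ring, whose subunits are used in equal number, the level in WT VSMC fell from Mcm6 and Mcm7 over Mcm4 (3.92 ± 0.49 FPKM), Mcm3 (1.61 ± 0.30) and Mcm2 (1.53 ± 0.19) to Mcm5 (0.561 ± 0.349). Mcm5 reached 2.76 ± 2.78 FPKM in KO VSMC (n = 4) and 1.66 ± 0.94 FPKM in EC (n = 9). E2f1, a transcription factor of the E2F family, had 41.3 ± 16.9 FPM in EC, 54.4 ± 5.31 FPM in WT VSMC and 60.2 ± 10.0 FPM in KO VSMC (mean ± SD). The exons of some members share bases with genes on the other strand (Gins2 67.3%, Fen1 65.9%, Chaf1a 51.0%, Rrm2 43.3%, Rfc5 41.4%). No strand setting is stated for the counting, so reads from the shared bases may be assigned wrongly or left out. FPKM divides by the joined length of all annotated exons of a gene, so the levels of these genes are uncertain. Mcm2, Mcm3, Mcm5, Clspn, Dnmt1 and E2f1 share no exon bases with other genes. For any gene the joined length (Rrm1 11762 bases, Mcm5 6838, Pcna 2400) can exceed that of the transcripts present. The orders of level given here, that of the ring included, therefore also depend on the annotation.

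**Figure D1:**
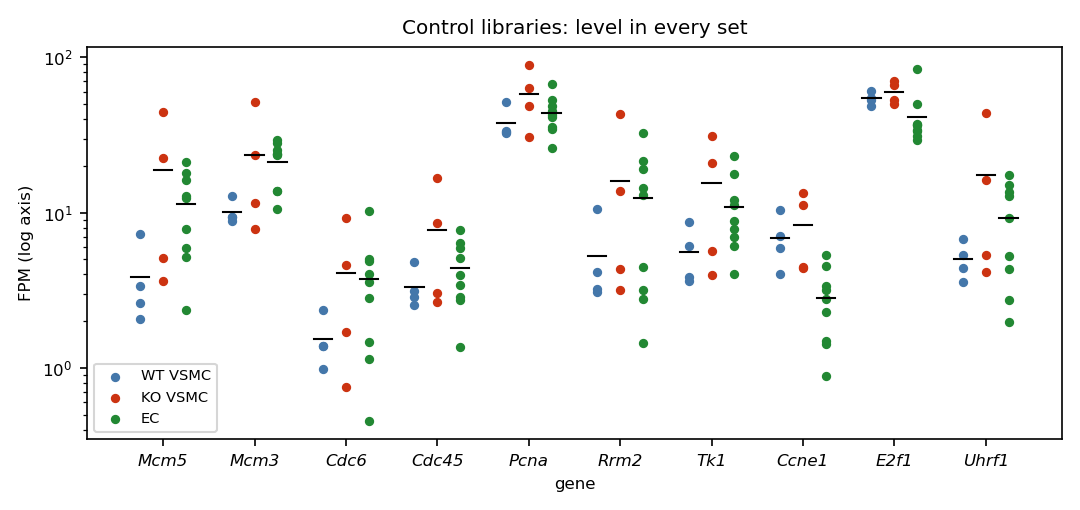
Level of the named genes in the Control libraries, in FPM on a log axis, with 1 point per library (4 WT VSMC, 4 KO VSMC, 9 EC) and a bar at each mean. KO VSMC spread widest, for Mcm5 from 3.64 to 44.4 FPM, while E2f1 stayed between 48.3 and 70.6 FPM in VSMC.

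In WT VSMC 1 of the 38 genes rose past all thresholds under the combined stressors, Mcm5, a subunit of the replicative helicase (1.21% of the 16905 genes tested were called higher). A gene is called where edgeR and DESeq2 both give an adjusted p under 0.05, the log2 fold change (log2FC) is at least 0.64 and one group reaches 3 FPM. Only protein-coding genes, as all 38 are, and lncRNA genes can be called. The shares called are of all genes tested, whatever their type, and are lower for that. No member was called lower (0.964% of all genes were). At an unadjusted edgeR p under 0.05, 13 of 38 (34.2%) were higher and 0 lower, against 10.9% and 10.8% of all genes. At an adjusted p under 0.05 edgeR alone gave 4 higher members (Clspn, Dnmt1, Mcm5 and Mcm3; 3.92% of all genes) and DESeq2 alone 5, with Rrm2 added (9.73% of all genes in either direction). The estimate was above 0 for 34 members, with a median log2FC of 0.16, where 47.9% of all genes were above 0 and their median was -0.01. The exceptions were Orc1 (-0.36), Prim1 (-0.09), Ccne2 (-0.04) and Mcm7 (-0.02).

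Among the licensing genes, Mcm5 stood at 7.33, 3.36, 2.07 and 2.602 FPM in the Control libraries of sets 1 to 4, at 8.81, 5.202, 2.99 and 5.28 FPM under HG+FFA, at 6.47, 2.84, 2.98 and 4.01 FPM under AII+NA and at 8.31, 8.44, 3.67 and 5.395 FPM under ALL. All 4 sets were higher under ALL than in their own Control library, set 1 by the least and set 2 by the most, although the ranges of the groups overlapped because set 1 was already high. The log2FC was 0.83 ± 0.20 (SE, n = 4 sets, edgeR adjusted p = 0.0171, DESeq2 adjusted p = 0.00108), a rise by 78.1%. Leaving out set 2, 3 or 4 ended the call, with edgeR adjusted p = 0.0729, 0.0642 and 0.0959 and log2FC of 0.63, 0.84 and 0.78. Mcm3, its neighbour in the ring, stood at 12.9, 9.33, 9.31 and 8.78 FPM in Control, 16.7, 9.33, 11.7 and 10.5 FPM under HG+FFA, 12.5, 9.04, 11.3 and 10.8 FPM under AII+NA and 15.8, 16.3, 11.7 and 12.7 FPM under ALL. It was higher under ALL in 4 of 4 sets and passed both tools (log2FC 0.50 ± 0.13, edgeR adjusted p = 0.0244) but not the size threshold. Mcm2 stood at 14.4, 11.3, 11.7 and 11.4 FPM in Control, 16.04, 12.2, 11.3 and 12.3 FPM under HG+FFA, 12.3, 10.98, 13.98 and 12.4 FPM under AII+NA and 16.8, 16.9, 12.96 and 14.1 FPM under ALL. It too was higher in 4 of 4 sets, by 0.32 ± 0.11 (edgeR adjusted p = 0.0914), which did not pass. The other ring subunits Mcm4, Mcm6 and Mcm7 had log2FC of 0.13, 0.11 and -0.02.

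Cdc6 and Cdt1 load the ring, and neither passed the unadjusted threshold. Cdc6 stood at 2.37, 1.37, 1.39 and 0.976 FPM in Control, 3.52, 1.71, 1.37 and 1.32 FPM under HG+FFA, 2.22, 1.68, 0.864 and 0.945 FPM under AII+NA and 1.79, 2.23, 1.04 and 1.72 FPM under ALL (log2FC 0.17 ± 0.25, edgeR adjusted p = 0.763). Cdt1 stood at 7.12, 6.24, 4.98 and 4.48 FPM in Control, 8.99, 6.55, 4.72 and 5.28 FPM under HG+FFA, 7.73, 3.62, 5.31 and 5.07 FPM under AII+NA and 7.82, 6.92, 4.75 and 4.65 FPM under ALL (log2FC 0.07 ± 0.16, edgeR adjusted p = 0.84). ALL was above Control in 2 of 4 sets for Cdc6 and in 3 of 4 for Cdt1, and the groups overlapped. Of the helicase activators, Gins3 (0.46 ± 0.15, edgeR adjusted p = 0.0757) and Mcm10 (0.61 ± 0.28, edgeR adjusted p = 0.217) passed the unadjusted threshold, and all 5 estimates were above 0. Cdc45 stood at 4.803, 3.12, 2.53 and 2.85 FPM in Control, 5.69, 3.06, 2.401 and 2.61 FPM under HG+FFA, 4.86, 2.43, 2.14 and 1.701 FPM under AII+NA and 6.201, 5.62, 2.31 and 3.02 FPM under ALL. Set 3 was lower under ALL than in Control and the other 3 sets were higher (log2FC 0.33 ± 0.18, edgeR adjusted p = 0.305).

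Of the polymerase and clamp genes few passed even the unadjusted threshold. Pold1, the catalytic subunit of polymerase delta, was the 1 polymerase gene of 4 past the unadjusted threshold (0.26 ± 0.10, edgeR adjusted p = 0.136), and the clamp loader subunit Rfc4 the 1 of 8 clamp and lagging strand genes (0.43 ± 0.17, edgeR adjusted p = 0.15). Pcna stood at 51.8, 33.6, 32.5 and 32.8 FPM in Control, 54.6, 28.7, 35.3 and 37.5 FPM under HG+FFA, 47.9, 31.6, 34.6 and 33.6 FPM under AII+NA and 44.9, 40.6, 34.6 and 40.04 FPM under ALL. Set 1 was the highest library of all 4 conditions, and the log2FC of Pcna was 0.11 ± 0.10 (edgeR adjusted p = 0.55).

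Of the 4 nucleotide supply genes, 3 passed the unadjusted threshold and none the adjusted one in edgeR. Rrm2, the regulated subunit of ribonucleotide reductase, stood at 10.5, 4.15, 3.24 and 3.07 FPM in Control, 14.7, 4.85, 2.904 and 3.67 FPM under HG+FFA, 12.7, 4.22, 3.14 and 3.93 FPM under AII+NA and 11.1, 8.62, 3.42 and 6.19 FPM under ALL. Every set was higher under ALL than in Control, least in set 3 (log2FC 0.57 ± 0.19, edgeR adjusted p = 0.0833, DESeq2 adjusted p = 0.0356). The thymidine kinase Tk1 stood at 8.71, 6.07, 3.87 and 3.61 FPM in Control, 12.6, 5.996, 5.22 and 5.24 FPM under HG+FFA, 7.61, 5.27, 4.83 and 5.44 FPM under AII+NA and 10.9, 9.57, 4.03 and 5.67 FPM under ALL (log2FC 0.44 ± 0.17, edgeR adjusted p = 0.137). The large reductase subunit Rrm1 had a log2FC of 0.20 ± 0.09 (edgeR adjusted p = 0.189), and thymidylate synthase Tyms one of 0.05 ± 0.10.

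Dnmt1, the maintenance methyltransferase, was the 1 chromatin copying gene of 4 past the unadjusted threshold. It was chosen for these values after they were seen, as was Clspn. The Dnmt1 libraries stood at 22.7, 34.2, 25.5 and 32.3 FPM in Control and 29.6, 40.8, 30.8 and 39.5 FPM under ALL, so each set was higher, by a log2 ratio of 0.26 in set 2 to 0.39 in set 1. It passed both tools at a size under the threshold (log2FC 0.30 ± 0.06, a rise by 23.1%, edgeR adjusted p = 0.00701). Uhrf1, which brings Dnmt1 to new DNA, stood at 5.31, 4.39, 6.72 and 3.58 FPM in Control, 7.39, 4.81, 5.31 and 4.21 FPM under HG+FFA, 5.28, 5.08, 7.102 and 4.01 FPM under AII+NA and 7.08, 8.41, 5.11 and 5.07 FPM under ALL. Set 3 was lower under ALL and the other 3 sets were higher (log2FC 0.37 ± 0.19, edgeR adjusted p = 0.255). Chaf1a and Chaf1b, subunits of the nucleosome assembly factor, had log2FC of 0.16 and 0.08.

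Of the genes of G1/S control and the checkpoint gene Clspn grouped with them, Clspn and Ccne1 passed the unadjusted threshold. Clspn stood at 1.68, 1.097, 0.735 and 0.687 FPM in Control and 3.44, 2.93, 1.48 and 1.86 FPM under ALL, higher in all 4 sets. Its log2FC of 1.21 ± 0.23 (edgeR adjusted p = 0.00557) was the largest of the 38, but its group means stayed under 3 FPM, so it was not called. Cyclin E1, encoded by Ccne1, stood at 10.4, 7.07, 5.93 and 4.05 FPM in Control, 12.4, 7.86, 6.62 and 4.99 FPM under HG+FFA, 10.02, 5.23, 5.73 and 4.73 FPM under AII+NA and 11.2, 10.99, 5.94 and 5.77 FPM under ALL (log2FC 0.32 ± 0.14, edgeR adjusted p = 0.202). Sets 1 and 2 were above sets 3 and 4 in all conditions but AII+NA, and each set was higher under ALL than in Control. E2f1 stood at 61.1, 48.3, 53.2 and 55.1 FPM in Control, 58.2, 46.7, 57.96 and 55.9 FPM under HG+FFA, 59.5, 44.9, 59.4 and 61.01 FPM under AII+NA and 54.6, 59.4, 58.3 and 62.7 FPM under ALL. ALL was below Control in set 1 and above it in the other 3 sets (log2FC 0.12 ± 0.08, edgeR adjusted p = 0.457).

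**Figure D2:**
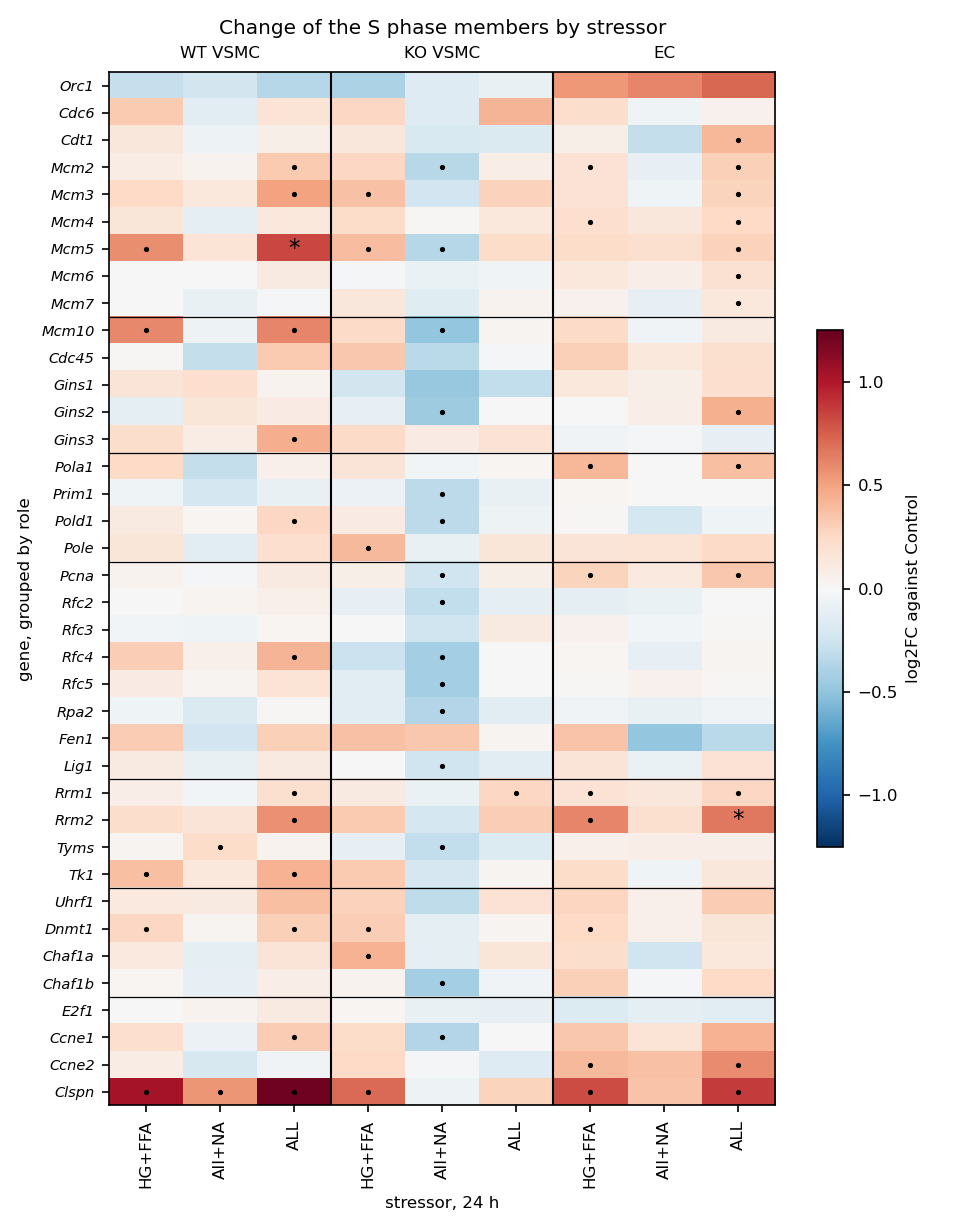
log2FC against Control of each of the 38 genes (vertical axis, by role) under each stressor (horizontal axis) in WT VSMC, KO VSMC and EC, as colours. In WT VSMC the ALL column is mostly above 0, led by Clspn (1.21) and Mcm5 (0.83), while in KO VSMC the AII+NA column is mostly below 0.

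Of the single stressors in WT VSMC, neither gave a called member. Under HG+FFA 0 of 38 genes were called (0.183% of all genes were called higher and 0.101% lower), 5 were higher and 0 lower at an unadjusted edgeR p under 0.05 (5.29% and 5.9% of all genes), and DESeq2 alone gave 2 adjusted p under 0.05, for Clspn and Dnmt1 (1.74% of all genes). The median was 0.12, and Clspn (1.04 ± 0.23, edgeR adjusted p = 0.0603), Dnmt1 (0.26 ± 0.06, 0.0657) and Mcm5 (0.58 ± 0.20, 0.243) led. Under AII+NA 0 genes were called (0.0414% of all genes higher, 0.0% lower), 2 were higher at an unadjusted edgeR p under 0.05 (4.97% of all genes) and none by DESeq2, with a median of -0.03. The 3 comparisons share their Control libraries. Between ALL and AII+NA 0 genes were called (0.278% of all genes higher, 0.26% lower), but 15 of 38 were higher and 0 lower at an unadjusted edgeR p under 0.05 (6.96% and 7.35% of all genes), and the median was 0.24. Dnmt1 passed edgeR there (0.26 ± 0.06, adjusted p = 0.0431, 0.704% of all genes), and DESeq2 gave 3 adjusted p under 0.05, for Dnmt1, Cdc45 and Mcm5 (3.2% of all genes). Between ALL and HG+FFA 0 genes were called (0.0237% higher, 0.00592% lower), 1 was higher at an unadjusted edgeR p under 0.05 (5.73% of all genes) and none passed DESeq2. Whether ALL exceeded the sum of both single effects was tested as an interaction. There 0 genes were called (0.0% in both directions), 1 was higher at an unadjusted edgeR p under 0.05 (0.787% of all genes), DESeq2 gave none, and the median was 0.10.

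Per set, the members shifted unequally. The median log2 ratio of ALL to Control was 0.05 in set 1, 0.39 in set 2, 0.05 in set 3 and 0.21 in set 4, with 23, 37, 22 and 32 members higher. Under HG+FFA the medians were 0.24, -0.01, 0.08 and 0.17 for sets 1 to 4, so set 2 had the highest median under ALL and the lowest under HG+FFA. Markers of smooth muscle itself and of other cell types moved in the same comparison. Of the 7 smooth muscle markers 5 were higher under ALL at an unadjusted edgeR p under 0.05 (2 called, median 0.84), while 4 of 5 pericyte markers (1 called, median -0.52), 4 of 8 endothelial markers (1 called, median -0.51) and 3 of 5 fibroblast markers (median -0.30) were lower. Of all genes 10.9% were higher and 10.8% lower at this threshold. The part of these markers in the result was not tested.

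In KO VSMC no replication gene was called under any stressor. Under ALL 0 of 38 were called (0.217% of all genes higher, 0.0969% lower), 1 gene was higher at an unadjusted edgeR p under 0.05 (4.88% of all genes), namely Rrm1 (0.26 ± 0.11), DESeq2 gave none, and the median was 0.03. ALL was measured in 3 KO sets, and without the other libraries of set 5, the set with residual Egfr, the median was -0.0031. Under HG+FFA 0 were called (0.234% higher, 0.0513% lower), 6 were higher at an unadjusted p under 0.05 in edgeR (6.36% of all genes) and none by DESeq2. These 6 were Dnmt1, Chaf1a, Clspn, Mcm3, Mcm5 and Pole, with log2FC of 0.31 to 0.71. The median of the 38 was 0.15, and 0.0643 to 0.205 on leaving out a set.

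Under AII+NA the KO estimates lay below 0 for 35 of 38 genes, where 51.3% of all genes were above 0. None was called (0.0% in both directions), the smallest edgeR adjusted p was 0.509, and DESeq2 gave none. At an unadjusted edgeR p under 0.05, 15 of 38 (39.5%) were lower and 0 higher, against 5.83% and 3.92% of all genes, and the median was -0.24. The lowest p belonged to Gins2 (-0.44 ± 0.13, unadjusted p = 0.00287 in edgeR), which shares exons with Gse1, followed by Pold1 (-0.32 ± 0.10) and the primase Prim1 (-0.32 ± 0.10). The set medians were -0.01, -0.47, -0.28 and -0.14 for sets 5 to 8, and in set 6, whose Control library had the highest level of all, 38 of 38 genes were lower. Without set 6 the median was -0.15, and without set 5 it was -0.32. Of the 7 smooth muscle markers 2 were higher under AII+NA at an unadjusted edgeR p under 0.05 (median 0.21, none called), and their part in the result was not tested. Against AII+NA, ALL in turn gave 0 called genes (0.2% higher, 0.103% lower), 16 higher at an unadjusted edgeR p under 0.05 (4.88% of all genes), none by DESeq2, and a median of 0.25. Both of these comparisons use the AII+NA libraries. Against HG+FFA, ALL gave 0 called genes (0.0% in both directions), 0 higher and 1 lower at an unadjusted edgeR p under 0.05 (1.07% and 1.84% of all genes) and none by DESeq2. The interaction of both stressors gave 0 called (0.0%), 3 higher at an unadjusted edgeR p under 0.05 (2.9% of all genes) and none by DESeq2.

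The libraries behind these values were widely spread. Mcm5 stood at 5.07, 44.4, 22.5 and 3.64 FPM in the Control libraries of sets 5 to 8, at 8.39, 40.9, 26.1 and 7.64 FPM under HG+FFA, at 5.69, 27.8, 14.2 and 3.82 FPM under AII+NA and at 38.5, 24.2 and 6.35 FPM under ALL (sets 6 to 8). Sets 6 and 7 were above sets 5 and 8 in every condition. Mcm3 followed with 7.89, 51.7, 23.4 and 11.5 FPM, 12.1, 44.6, 30.4 and 20.02 FPM, 8.73, 34.5, 18.8 and 11.1 FPM and 48.2, 26.2 and 18.8 FPM in the same order of conditions. Mcm2 stood at 12.8, 52.3, 24.9 and 12.4 FPM in Control, 14.5, 41.96, 35.2 and 20.4 FPM under HG+FFA, 10.4, 34.2, 19.5 and 11.9 FPM under AII+NA and 45.3, 28.4 and 15.7 FPM under ALL, with set 6 highest throughout. Sets 6 and 7 were also the highest for the loaders of the ring. Cdc6 stood at 1.702, 9.25, 4.57 and 0.756 FPM in Control, 1.804, 8.999, 6.64 and 1.204 FPM under HG+FFA, 1.74, 6.74, 4.78 and 0.662 FPM under AII+NA and 9.202, 5.64 and 1.95 FPM under ALL. Cdt1 stood at 4.66, 19.6, 11.2 and 5.01 FPM in Control, 5.21, 17.8, 10.5 and 8.24 FPM under HG+FFA, 4.95, 12.2, 9.82 and 5.57 FPM under AII+NA and 17.3, 8.26 and 5.13 FPM under ALL. Cdc45, which completes the helicase, stood at 3.02, 16.8, 8.604 and 2.65 FPM in Control, 4.75, 13.8, 9.68 and 5.04 FPM under HG+FFA, 2.81, 11.9, 8.09 and 1.52 FPM under AII+NA and 14.9, 7.07 and 3.29 FPM under ALL. For all 6 of these genes sets 6 and 7 lay above sets 5 and 8 in every condition.

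Pcna, the clamp, differed less between sets, at 30.6, 89.5, 63.6 and 48.5 FPM in Control, 35.9, 88.1, 70.9 and 45.9 FPM under HG+FFA, 28.97, 62.3, 56.1 and 42.3 FPM under AII+NA and 72.4, 72.9 and 56.7 FPM under ALL. It was lower under AII+NA in 4 of 4 sets (-0.25 ± 0.10, unadjusted edgeR p = 0.0267, adjusted p = 0.509). Rrm2 stood at 4.31, 43.1, 13.8 and 3.17 FPM in Control, 5.65, 38.1, 14.99 and 7.94 FPM under HG+FFA, 4.48, 30.1, 12.9 and 2.804 FPM under AII+NA and 36.4, 13.6 and 8.46 FPM under ALL. Tk1, the salvage enzyme for thymidine, stood at 5.698, 31.02, 20.9 and 3.97 FPM in Control, 8.75, 29.8, 19.7 and 8.92 FPM under HG+FFA, 5.32, 21.7, 16.1 and 5.49 FPM under AII+NA and 27.2, 15.6 and 7.27 FPM under ALL. In both, set 6 was highest in every condition and set 7 next. Uhrf1 stood at 5.32, 43.7, 16.2 and 4.16 FPM in Control, 5.71, 37.9, 21.7 and 8.81 FPM under HG+FFA, 4.55, 28.2, 13.1 and 4.56 FPM under AII+NA and 34.7, 16.7 and 8.995 FPM under ALL. Ccne1 stood at 4.41, 13.3, 11.2 and 4.49 FPM in Control, 5.81, 16.1, 12.9 and 4.55 FPM under HG+FFA, 4.18, 10.2, 8.45 and 2.96 FPM under AII+NA and 14.2, 9.77 and 4.36 FPM under ALL, and was lower under AII+NA in 4 of 4 sets (-0.36 ± 0.12, edgeR adjusted p = 0.509). E2f1 again held a narrow range, at 50.1, 66.8, 70.6 and 53.4 FPM in Control, 59.4, 62.1, 68.7 and 53.7 FPM under HG+FFA, 49.4, 63.2, 63.4 and 48.99 FPM under AII+NA and 65.2, 57.2 and 50.1 FPM under ALL.

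Whether the stressor effects differed between genotypes was tested as the WT effect minus the KO effect. For no stressor was a member called. For ALL 0 of 38 passed (0.0% of 18339 genes were called higher in WT, 0.0109% lower), 4 were higher at an unadjusted edgeR p under 0.05 (4.2% of all genes), DESeq2 gave none, and the median difference was 0.21. These 4 were Clspn (0.94 ± 0.38, edgeR adjusted p = 0.597), Mcm5 (0.60 ± 0.28, 0.65), Pold1 (0.32 ± 0.15, 0.652) and Dnmt1 (0.26 ± 0.12, 0.632). The call of Mcm5 in WT VSMC and its absence in KO VSMC are thus not shown to be a difference between genotypes. For AII+NA 0 were called (0.0% in both directions), 6 were higher at an unadjusted edgeR p under 0.05 (6.93% of all genes), none by DESeq2, and the median was 0.20, with Tyms (0.54 ± 0.14, edgeR adjusted p = 0.395) and Gins2 (0.60 ± 0.21, 0.395) in front. For HG+FFA 0 were called (0.0%), 1 was higher at an unadjusted edgeR p under 0.05 (1.33% of all genes), DESeq2 gave none, and the median was 0.00.

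**Figure D3:**
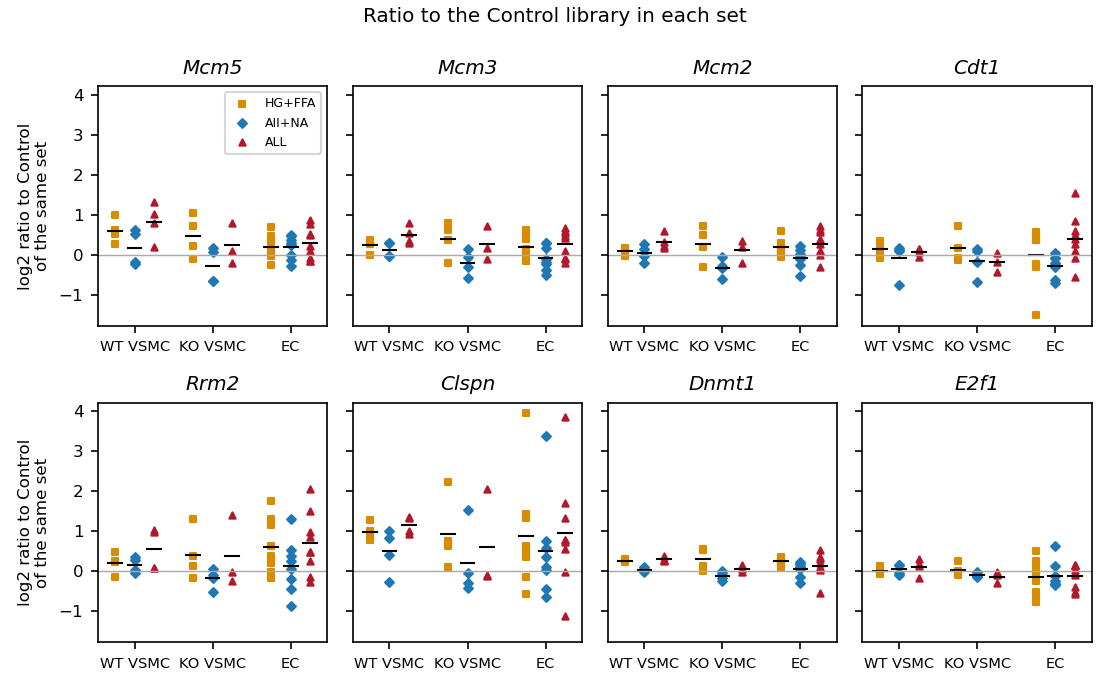
log2 ratio of each stressor library to the Control library of its own set, for named genes, with 1 point per set and a bar at the mean; cell types are on the horizontal axis. For Mcm5 all 4 WT VSMC sets lie above 0 under ALL (0.18 to 1.30). KO VSMC sets lie on both sides of 0 for Mcm5 under ALL and under AII+NA, reaching down to -0.67 under AII+NA.

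Cultures differed more than conditions in KO VSMC. Averaged over the 38 genes as log2(FPM + 0.1), the set means ran from 2.74 to 3.23 in WT VSMC, a span of 1.4-fold, and from 2.92 to 4.37 in KO VSMC, a span of 2.75-fold. Sets 6 (4.37) and 7 (3.72) stood above all WT sets, set 8 (3.02) and set 5 (2.92) among them. The set accounted for a median of 55.1% of a gene's variance in WT VSMC, 78.9% in EC and 86.8% in KO VSMC, and the condition for 10.95%, 3.75% and 6.965% in the same order. The rest was 27.5%, 16.7% and 5.54%. These are raw shares over 4 sets in WT VSMC, 10 in EC and 4 in KO VSMC, so they do not compare directly between cell types. In WT VSMC the share due to the condition was highest for Pola1 (54.7%), Gins3 (54.5%) and Clspn (52.6%). Set 6 also had the most Mki67, a proliferation marker, among VSMC sets (39.2 FPM on average, against 1.35 to 10.0 FPM in the other 7).

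**Figure D4:**
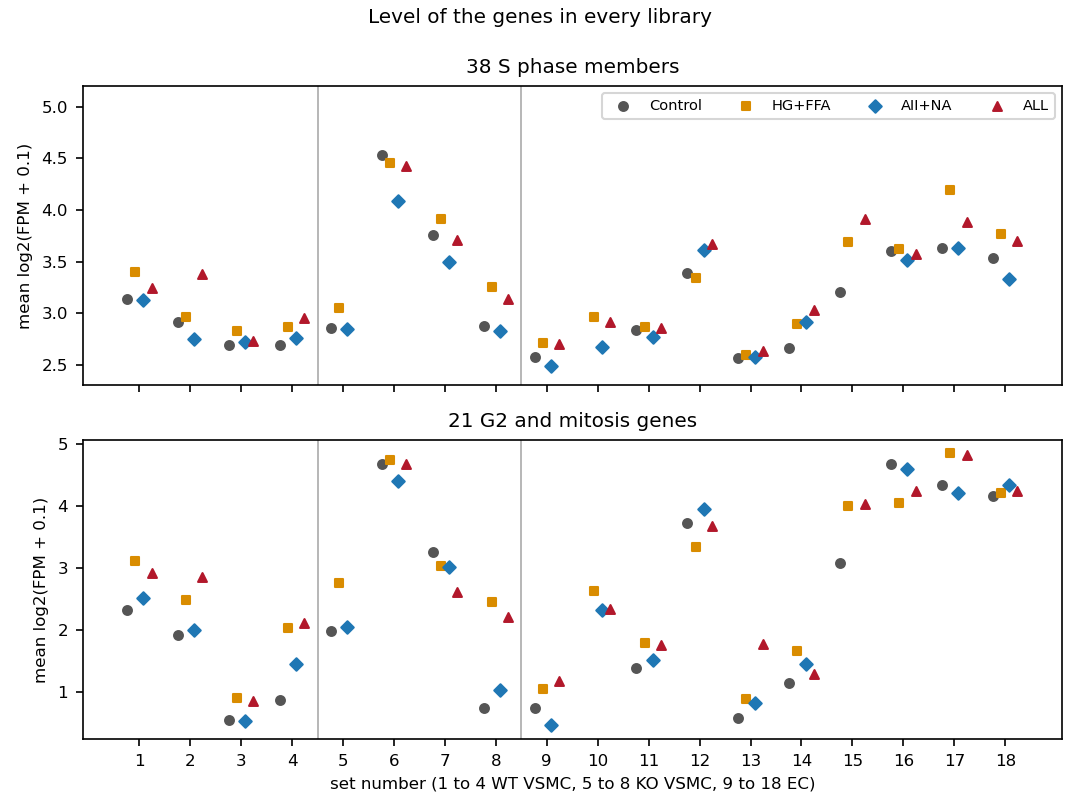
Mean log2(FPM + 0.1) of the 38 genes and of the comparison genes in every library (vertical axis) by set number (horizontal axis), with 1 point per library, coloured by condition. Within a set the points of the 38 genes span up to 0.63 in WT VSMC, where the set means span 0.48. They span up to 0.45 within a KO VSMC set and up to 0.70 within an EC set. KO VSMC sets run from 2.92 to 4.37 as means and EC sets from 2.59 to 3.84.

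In the Control libraries all 38 genes had a higher estimate in KO VSMC than in WT VSMC, and none was called. The call rate in this comparison was low for all genes (0.00622% higher, 0.0% lower of 16089), and the smallest edgeR adjusted p of a member was 0.378, with none under 0.05 by DESeq2. At an unadjusted edgeR p under 0.05, 15 of 38 (39.5%) were higher and 0 lower, against 6.9% and 5.27% of all genes. The median was 0.70, and 49.7% of all genes were above 0. Mcm5 had the largest difference (2.28 ± 0.78, edgeR adjusted p = 0.385), followed by Clspn (1.93 ± 0.80), Mcm10 (1.80 ± 0.85) and Uhrf1 (1.77 ± 0.68), and Rrm1 (0.05 ± 0.33) and E2f1 (0.14 ± 0.15) had the smallest. Lig1, the ligase that seals the lagging strand, was the 1 gene of 38 whose 4 KO libraries all lay above the 4 WT libraries (0.58 ± 0.19, edgeR adjusted p = 0.378). Of all genes 2.77% did so, so this count is near the share of all genes. Without set 6 the median fell to 0.41 and without set 5 it was 0.92. Smooth muscle markers were higher in KO Control libraries as well (6 of 7 at an unadjusted edgeR p under 0.05, median 1.19) and fibroblast markers lower (4 of 5, median -1.77), none called. Their part in the difference was not tested.

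In EC Rrm2 was called higher under the combined stressors, a call that was lost in several alternatives. The 38 genes leaned upward under ALL and HG+FFA but not under AII+NA. Under ALL 1 gene was called higher (0.222% of 17148 genes) and 0 lower (0.42%). At an unadjusted edgeR p under 0.05, 14 of 38 (36.8%) were higher and 0 lower, against 6.83% and 9.35% of all genes, and the median was 0.20. Of the 9 licensing genes 7 were among these, with Mcm2 (0.30 ± 0.09, edgeR adjusted p = 0.0496) past the edgeR threshold at a size under 0.64. edgeR alone thus gave 2 members (1.14% of all genes) and DESeq2 alone 7 (5.22%). Rrm2 ranged over 1.45 to 32.6 FPM (median 13.03) in 9 Control libraries, 3.601 to 42.01 FPM (median 12.6) in 10 HG+FFA libraries, 1.67 to 28.6 FPM (median 7.14) in 9 AII+NA libraries and 3.82 to 37.8 FPM (median 14.3) in 10 ALL libraries. The groups overlapped almost fully, and the test rests on the ratio within sets. ALL was above Control in 7 of 9 sets, from -0.26 in set 16 to 2.06 in set 14, with a log2FC of 0.66 ± 0.18 (edgeR adjusted p = 0.03, DESeq2 adjusted p = 0.00701). Without sets 15 and 16 the log2FC was 0.68 and the edgeR adjusted p 0.0757, and with the animal as the block, so that sets 17 and 18 count as 1 animal, 0.67 and 0.0861. The call was also lost without set 18, with complete sets only, with only the 2 groups compared and without the block. Without sets 9, 11 and 13, those low in endothelial markers, Rrm2 stayed called.

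Under HG+FFA 0 members were called in EC (0.251% of all genes higher, 0.397% lower), 9 were higher and 0 lower at an unadjusted edgeR p under 0.05 (8.37% and 8.5% of all genes), and the median was 0.18. Rrm2 (0.61 ± 0.18, adjusted p = 0.0487) and the polymerase alpha subunit Pola1 (0.42 ± 0.12, adjusted p = 0.0479) passed edgeR at a size under 0.64 (1.64% of all genes), and DESeq2 gave 4 adjusted p under 0.05 (5.65%). Under AII+NA 0 were called (0.0% in both directions), 0 passed the unadjusted threshold in edgeR (2.75% of all genes higher, 3.92% lower) and 0 DESeq2, and the median was 0.00. Between ALL and AII+NA Cdt1 was called higher (0.251% of all genes) and 0 genes lower (0.379%), and 9 were higher at an unadjusted edgeR p under 0.05 (6.48% of all genes). Cdt1 is the licensing factor that is destroyed once S phase begins. It ranged over 2.94 to 9.53 FPM (median 4.42) in Control, 1.29 to 8.08 FPM (median 4.97) under HG+FFA, 2.37 to 6.09 FPM (median 3.42) under AII+NA and 2.75 to 13.1 FPM (median 5.75) under ALL. ALL exceeded AII+NA in 9 of 9 sets, by 0.08 in set 17 to 2.26 in set 18 (log2FC 0.71 ± 0.20, edgeR adjusted p = 0.043), and without set 18 the log2FC was 0.51 and the edgeR adjusted p 0.175. The call was also lost with the animal as the block (0.68, edgeR adjusted p = 0.116), without sets 9, 11 and 13 (0.83, edgeR adjusted p = 0.0537) and without sets 15 and 16 (0.68, edgeR adjusted p = 0.141). Mcm2 (0.40 ± 0.09, adjusted p = 0.00576) and Mcm7 (0.23 ± 0.06, adjusted p = 0.0322) passed edgeR in this comparison at sizes under 0.64, so that edgeR alone gave 3 members (1.38% of all genes) and DESeq2 alone 5 (5.24%). Between ALL and HG+FFA 0 were called (0.0% in both directions), 1 was higher at an unadjusted edgeR p under 0.05 (2.3% of all genes), and DESeq2 gave none. The interaction of both stressors gave 0 called members (0.0%), 1 higher at an unadjusted edgeR p under 0.05 (3.83% of all genes) and none by DESeq2.

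The other named genes showed the same breadth between EC sets. Mcm5 ranged over 2.35 to 21.1 FPM (median 12.4) in Control, 2.53 to 26.2 FPM (median 12.4) under HG+FFA, 3.26 to 19.2 FPM (median 9.72) under AII+NA and 3.42 to 23.3 FPM (median 14.8) under ALL (ALL against Control 0.28 ± 0.11, edgeR adjusted p = 0.18). Mcm3 ranged over 10.5 to 29.3 FPM (median 23.7) in Control, 10.7 to 36.1 FPM (median 23.3) under HG+FFA, 12.7 to 26.5 FPM (median 19.2) under AII+NA and 14.7 to 39.9 FPM (median 23.8) under ALL. Mcm2 ranged over 10.9 to 38.8 FPM (median 21.7) in Control, 13.1 to 42.3 FPM (median 23.5) under HG+FFA, 10.5 to 30.96 FPM (median 21.2) under AII+NA and 16.1 to 43.7 FPM (median 25.1) under ALL. For these ring subunits set 9 or 11 or 13 gave the lowest library in every condition. Cdc6 ranged over 0.453 to 10.2 FPM (median 3.58) in Control, 0.855 to 8.61 FPM (median 3.46) under HG+FFA, 0.212 to 6.21 FPM (median 3.82) under AII+NA and 0.4498 to 8.66 FPM (median 3.14) under ALL. Cdc45 ranged over 1.36 to 7.76 FPM (median 3.96) in Control, 1.56 to 8.72 FPM (median 5.83) under HG+FFA, 2.07 to 6.896 FPM (median 3.6) under AII+NA and 1.304 to 8.38 FPM (median 4.29) under ALL. Pcna, with the highest level of the 38 per length in EC, ranged over 25.9 to 67.5 FPM (median 42.6) in Control, 28.9 to 85.7 FPM (median 51.01) under HG+FFA, 36.96 to 57.2 FPM (median 44.4) under AII+NA and 30.2 to 84.6 FPM (median 54.2) under ALL (ALL against Control 0.34 ± 0.12, edgeR adjusted p = 0.109). Its groups overlapped in every comparison.

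Tk1 ranged over 4.04 to 23.01 FPM (median 8.76) in Control, 5.79 to 25.9 FPM (median 9.29) under HG+FFA, 3.93 to 22.7 FPM (median 8.08) under AII+NA and 5.66 to 20.9 FPM (median 9.07) under ALL. Uhrf1 ranged over 1.96 to 17.5 FPM (median 9.29) in Control, 2.57 to 31.7 FPM (median 8.5) under HG+FFA, 1.55 to 19.7 FPM (median 4.45) under AII+NA and 2.41 to 20.1 FPM (median 9.73) under ALL. Neither passed an unadjusted p of 0.05 against Control under any stressor. Ccne1 ranged over 0.887 to 5.34 FPM (median 2.76) in Control, 0.93 to 7.51 FPM (median 3.52) under HG+FFA, 0.877 to 4.91 FPM (median 3.09) under AII+NA and 1.12 to 9.85 FPM (median 4.101) under ALL, and its relative Ccne2, the other E-type cyclin, had a log2FC of 0.59 ± 0.19 under ALL (edgeR adjusted p = 0.0724). E2f1 ranged over 29.2 to 83.7 FPM (median 36.5) in Control, 19.9 to 58.01 FPM (median 33.9) under HG+FFA, 24.5 to 66.6 FPM (median 36.4) under AII+NA and 21.5 to 56.2 FPM (median 36.6) under ALL, with estimates against Control of -0.17, -0.11 and -0.13. Per set, the median of the 38 log2 ratios of ALL to Control was above 0 in 8 of 9 sets, from -0.06 in set 16 to 0.63 in set 15, where 37 members were higher. Fibroblast markers were lower under ALL in EC (3 of 5 at an unadjusted edgeR p under 0.05, 9.35% of all genes, median -0.33, none called), and their part in the result was not tested.

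Between cell types, the share of members called higher was near that of all genes. In Control libraries 2 of 38 were called higher in EC than in WT VSMC (5.01% of 17115 genes) and 0 lower (4.31%). The 2 were Mcm3 at 1.09 ± 0.28 (edgeR adjusted p = 0.0259) and Mcm2 at 0.94 ± 0.26 (edgeR adjusted p = 0.0349). Ccne1 leaned the other way (-1.28 ± 0.42, edgeR adjusted p = 0.0585), as the 1 member lower at an unadjusted edgeR p under 0.05. No member separated the 4 WT VSMC libraries from the 9 EC libraries without overlap, where 3.2% of all genes were higher in every EC library. Without EC sets 9, 11 and 13 the count of called members rose from 2 to 7 (Mcm2, Mcm3, Mcm5, Cdc6, Dnmt1, Pola1 and Pole), and without sets 15 and 16 it was 1, Ccne1. Leaving out WT set 2, 3 or 4 ended both calls, and leaving out set 1 left Mcm3.

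The replication genes were set beside 4 other lists of cell cycle genes. In WT VSMC under ALL, 7 of 21 genes of G2 and mitosis were called higher (1.21% of all genes). In edgeR 18 of 21 passed the unadjusted threshold (10.9% of all genes higher, 10.8% lower). The median was 0.78, against 0.16 for the replication genes. Mki67 (1.30 ± 0.17, edgeR adjusted p = 0.000564), the mitotic topoisomerase gene Top2a (1.02 ± 0.14, 0.000737), the spindle motor Kif11 (1.28 ± 0.20, 0.00182) and cyclin B1 (Ccnb1, 0.95 ± 0.18, 0.00439) were among the called genes, with Ccnb2, Hmmr and Aurkb. Under HG+FFA 4 of 21 were called higher (0.183% of all genes), Mki67 (1.11 ± 0.17), Top2a (0.89 ± 0.14), Kif11 (1.16 ± 0.20) and Ccnb1 (0.94 ± 0.17), with a median of 0.67. Under AII+NA 0 were called (0.0414% of all genes higher, 0.0% lower) and 0 passed the unadjusted threshold in edgeR (4.97% of all genes higher) or DESeq2, with a median of 0.19. In KO VSMC the median under ALL was 0.17, with 0 called (0.217% of all genes higher, 0.0969% lower), 0 at an unadjusted edgeR p under 0.05 (4.88% of all genes higher) and 0 by DESeq2. Under ALL the difference between genotypes called 0 of 21 (0.0% of all genes higher, 0.0109% lower), with 6 at an unadjusted edgeR p under 0.05 (4.2% of all genes higher), 0 by DESeq2 and a median of 0.61. In EC under ALL 0 were called (0.222% of all genes higher, 0.42% lower), and 9 passed the unadjusted threshold in edgeR (6.83% of all genes higher, 9.35% lower). DESeq2 gave 1 at the adjusted threshold (5.22% of all genes), and the median was 0.34. In the Control libraries the median of KO VSMC against WT VSMC was 1.94, with 0 called (0.00622% of all genes higher), 9 at an unadjusted edgeR p under 0.05 (6.9% of all genes higher, 5.27% lower) and 0 by DESeq2.

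A further 50 replication genes were counted in the same way. In WT VSMC under ALL 1 of 50 was called (1.21% of all genes higher), cyclin A2 (Ccna2, 0.76 ± 0.21, edgeR adjusted p = 0.0412). At an unadjusted edgeR p under 0.05, 11 were higher and 3 lower (10.9% and 10.8% of all genes), and the median was 0.12. The repressor E2f8 (1.45 ± 0.39, 0.0326) and the histone chaperone Asf1b (1.19 ± 0.25, 0.00957) passed edgeR but were not called, and Dut, which removes dUTP, passed edgeR downward (-0.28 ± 0.08, 0.0488). In EC the chromatin remodeller Hells was called under ALL (0.78 ± 0.21, edgeR adjusted p = 0.0342) and under HG+FFA (0.75 ± 0.21, 0.0411), and Rpa1, the large subunit of the single strand binding protein, passed edgeR at a size under 0.64 (0.40 ± 0.07, 0.000229). In KO VSMC 0 of the 50 were called under any stressor and 0 passed DESeq2. Of all genes 0.234%, 0.0% and 0.217% were called higher there under HG+FFA, AII+NA and ALL. Under AII+NA 9 of the 50 were lower and 0 higher at an unadjusted edgeR p under 0.05 (5.83% and 3.92% of all genes). Among 11 genes that brake the cycle, the CDK inhibitor Cdkn1c was called lower in WT VSMC under ALL (-0.85 ± 0.11, edgeR adjusted p = 0.000493) and Cdkn2b higher (0.69 ± 0.18, 0.0287). In KO VSMC under ALL Cdkn1c had an estimate of -0.91 ± 0.23 (edgeR adjusted p = 0.122), and the difference between genotypes was 0.06 ± 0.26. Of the 3 D cyclin genes with Cdk4, Cdk6 and Myc 0 were called against Control in any cell type, at most 3 passed the unadjusted threshold in edgeR in a comparison, and 2 passed DESeq2, under ALL in WT VSMC (9.73% of all genes).

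**Figure D5:**
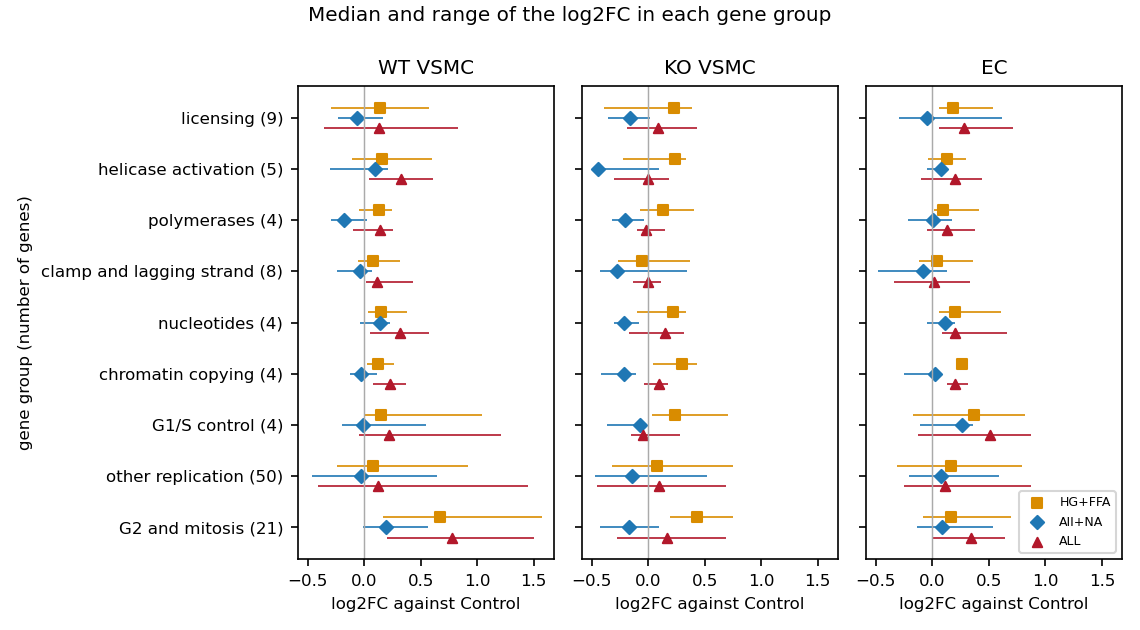
Median (symbol) and range (line) of the log2FC against Control for each gene group and stressor, in WT VSMC, KO VSMC and EC, on 1 shared horizontal axis. In WT VSMC genes of G2 and mitosis have medians of 0.67 and 0.78 under HG+FFA and ALL, and no role group of the replication genes exceeds 0.33.

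Among themselves the 38 genes moved together in part. After the mean of each set was taken off, the median correlation over the 703 pairs of genes was 0.433 across the 16 WT VSMC libraries, 0.446 across 15 KO VSMC libraries and 0.225 across 38 EC libraries. These values describe libraries that share depth and culture. Outside the list, the 10 genes most like the mean of the 38 over the 16 WT VSMC libraries, again as deviations from the set mean, among 12039 genes with at least 3 FPM, were Rapsn (r = 0.927), Fam98a (0.923), Tcf19 (0.917), Tpx2 (0.908), Gfra4 (0.893), Acot7 (0.891), Ddrgk1 (0.891), Fam110a (0.889), P3h4 (0.887) and 9330104G04Rik (0.885). Of these, Tpx2 belongs to the list of G2 and mitosis.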

How the data were processed

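Reads were aligned by the authors to mm39 with HISAT2 2.1.0, and the deposited values are raw counts of reads per Ensembl gene from featureCounts (exons, multi-mapping reads included). A strand setting is not given in the sources used here. Of the 56953 gene identifiers 56310 matched the GENCODE annotation of GRCm39. Every column matched a sample by its label. Library depth ranged from 17166133 to 43240489 counts, and counting error is therefore small beside the spread between sets, except for genes near 0.

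Counts were tested in edgeR 4.0.16 (quasi-likelihood, TMM scaling, its filter on low counts, R 4.3.3) and DESeq2 1.42.0, across all genes and with Benjamini-Hochberg adjustment, separately for WT VSMC, KO VSMC and EC. The set number was the block. The labels tie the libraries of a set to 1 animal, and same-set libraries deviated together (lowest r 0.407 in EC, 0.446 in WT VSMC and 0.471 in KO VSMC). A protein-coding or lncRNA gene was called at an adjusted p under 0.05 in both tools, a size of 0.64 or more on the log2 scale and a mean of 3 FPM or more in one group. Printed folds, SE and p are those of edgeR. Ratios of single libraries used log2(FPM + 0.1). No 2 libraries of a group were alike within sampling noise. Differences of the effects between genotypes were fitted as interactions, and Control libraries were compared between cell types without a block, although 4 animals gave both VSMC and EC. With the set as the block, the p-values measure the spread of the stressor effects between these cultures, pooled over the conditions of a fit. In the comparisons of Control libraries, which have no block, they measure the spread between cultures.

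Genes were named by a rule (Mcm5, Cdc6, Cdc45, Pcna, Rrm2, Tk1, Ccne1, E2f1 and Uhrf1, and each called member, with the 10 genes outside the list most like its mean). The members, the lists and the rule were chosen with earlier results of these data known. Alternatives were single tools, other thresholds, scaling and filters, no block, fewer groups or sets, and leaving out each VSMC set. The scripts were tested on simulated data. Figures were drawn with matplotlib 3.10.9 in Python 3.11.15.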

Additional observations from a re-analysis of the deposited data

Results flagged for a closer look

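In 143 groups of 4 to 10 libraries, 14 had a library far from the others by Dixon's test, where chance gives about 1 in 20 (7.15). In WT VSMC set 1 was the high library for Pcna in Control (51.84 FPM), for Rrm2 in Control (10.54 FPM), HG+FFA (14.74 FPM) and AII+NA (12.74 FPM), for Tk1 under HG+FFA (12.55 FPM), and for Mcm3 (12.88 FPM) and Mcm2 (14.35 FPM) in Control. The mean log2(FPM + 0.1) of the 38 genes was also high in set 1 under AII+NA, at 3.124. E2f1 was low in set 2 under AII+NA, at 44.85 FPM. In EC set 17 was high for Cdc6 (10.19 FPM) and Cdt1 (9.533 FPM) in Control and for Pcna under HG+FFA (85.73 FPM), set 15 for Ccne1 under ALL (9.85 FPM) and set 13 for E2f1 in Control (83.66 FPM).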

How the results depend on the processing

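Of 315 alternative counts of called members 274 stayed within 1.5 times of the reported count, 50 of 51 medians moved by less than the spread between replicates, and the called genes stayed called in 38 of 69 alternatives. None of the called genes (Mcm5, Rrm2, Cdt1, Mcm3 and Mcm2) changed direction. For ALL against Control in WT VSMC the count of 1 became 2 without the FPM minimum, 3 without the log2FC threshold, 0 at a log2FC of at least 1, and 0 to 2 on leaving out a set. For ALL against AII+NA in WT VSMC it became 1 with DESeq2 alone and 1 without the threshold, and for HG+FFA in EC 1 and 2. For ALL against Control in EC the count of 1 became 2 with DESeq2 alone, without the threshold, without the filter and without sets 9, 11 and 13. It became 0 at a log2FC of at least 1, with only the 2 groups compared, with complete sets only, with the animal as the block, without set 18, and without sets 15 and 16. For ALL against AII+NA in EC it became 3 without the threshold and 0 under each of those 6 settings and without sets 9, 11 and 13. For EC against WT VSMC in Control the count of 2 became 5 with DESeq2 alone, 1 at a log2FC of at least 1, 1 without the filter, 7 without sets 9, 11 and 13, 1 without sets 15 and 16, and 0 to 1 on leaving out a WT set. The median under AII+NA in WT VSMC lay between -0.0352 and 0.0693 on leaving out a set, so its sign changed without set 2. Medians near 0 also changed sign for ALL in KO VSMC (-0.0031 without set 5 and -0.0475 without set 8) and for AII+NA in EC (-0.0502 without the replicate block). Without the replicate block the count was 0 for ALL against Control in WT VSMC and in EC and 0 for ALL against AII+NA in EC. The causes were not tested. Leaving out sets 9, 11 and 13 or sets 15 and 16 was chosen after seeing the data, as were leaving out each set and DESeq2 size factors for Control KO VSMC against WT VSMC. Depth limits Clspn, Fen1, Mcm10 and Orc1, whose lowest count in EC was 0.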

Other observations

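For 4 animals both a VSMC and an EC culture were sequenced. The mean log2(FPM + 0.1) of the 38 genes was 3.23 in WT VSMC set 1 and 2.62 in EC set 9, 3.0015 in WT VSMC set 2 and 2.85 in EC set 10, 3.72 in KO VSMC set 7 and 3.60 in EC set 15, and 4.37 in KO VSMC set 6 and 3.58 in EC set 16. Both animals with KO VSMC were above both animals with WT VSMC in either cell type, although all EC are labelled WT, with 2 animals of each kind and no test. Among EC sets of other animals, sets 12, 17 and 18 had 3.50, 3.84 and 3.58, and sets 11, 13 and 14 had 2.83, 2.59 and 2.87. KO VSMC sets 5 and 8, without an EC culture here, had 2.92 and 3.02, within the WT VSMC range of 2.74 to 3.23. EC set 9 was low in endothelial markers.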
